A study of Homo sapiens with 3 samples.

Results

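The kinetochore, spindle and mitotic checkpoint genes are the 60 named genes that build the centromere, attach it to spindle microtubules, hold back anaphase until attachment is complete and then divide the cell. They were chosen by gene symbol for their known roles, with earlier results of these data known. All 60 were among the 16793 symbols of the deposited tables. RNA had been taken from the small cell lung cancer line H446 after 48 h in vehicle, in 5 µM BAS or in 10 µM BAS. BAS is 3-bromoascochlorin, a brominated relative of the fungal compound ascochlorin, and the series title names antitumour effects through the MAPK pathway. Each treatment had 1 library, 3 in all, and without replicates no p-value is given. In the column headers the treated samples are coded ASB85 and ASB810, and that these stand for 5 and 10 µM BAS could not be checked beyond the sample labels.

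At every centromere a nucleosome with the histone variant CENP-A carries the constitutive centromere-associated network, a group of CENP proteins that stays on the chromosome through the whole cell cycle. In mitosis this base recruits the outer kinetochore, whose NDC80 complex grips microtubules, and the checkpoint kinases BUB1 and TTK, which send a wait signal from unattached kinetochores. RNA of most outer kinetochore, checkpoint and spindle genes is known to build up in G2 and mitosis. In G0 and G1 the DREAM complex represses these genes through a promoter element called the CHR, and B-MYB and FOXM1 activate them later in the cycle.

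The 60 genes were set in 3 classes from textbook knowledge. Earlier results of these data were known by then, so the classes are not independent of them. The phase-regulated class has 36 genes with RNA that peaks in G2 and mitosis, and CENPA is among them. The constitutive centromere class has 15 genes, which are CENPB and 14 subunits of the constitutive network. Constitutive here describes the place of the proteins on the chromosome. Whether the RNA of these genes is constant through the cell cycle was not examined. The other 9 genes belong to neither class. Levels are in FPKM, fragments scaled to transcript length and to mapped reads, so they can be compared between genes. Differences are of log2(FPKM + 1), which understates the differences of low genes, and ratios are of plain FPKM. All 60 passed the filter on low values, a 3-library mean of 1 FPKM or more, which left 11512 genes to compare. Both doses are compared with the same vehicle library, so the comparisons are not independent.

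Of the libraries as a whole, the FPKM values summed to between 487923 and 507342. Read depth is unknown, since no counts were given. Among neuroendocrine markers, NEUROD1, which defines a subtype of this cancer, had 104.96, 93.2 and 91.6 FPKM from vehicle to the higher dose, and SYP had 17.3, 12.8 and 13.3 FPKM. INSM1 (72.9, 81.8 and 95.1 FPKM), NCAM1 (46.9, 60.1 and 65.8 FPKM), UCHL1 (82.2, 131 and 177 FPKM) and CHGA (1.91, 4 and 6.41 FPKM) were higher at each dose than with vehicle. The T cell gene CD3E was not analysed here. Leukocyte PTPRC was between 0.92 and 1.09 FPKM and CD14 at most 0.25 FPKM. Of 5 fibroblast and endothelial markers, 4 were at most 0.65 FPKM, and COL1A1 was between 63.6 and 98.5 FPKM.

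With BAS, most genes of the spindle and of mitotic progression were lower, and the constitutive centromere genes lay on both sides of vehicle. Of the 11 spindle and spindle pole genes, the lower dose had 11 below vehicle and the higher dose 8. Among all genes these shares were 46.6% and 43.3%. The counts depended on the processing. With length and GC trends removed, CENPJ (0.03) and PLK4 (0.04) lay above vehicle at the lower dose. CKAP2, at 0.01 with the higher dose, fell below vehicle under 3 other scalings. The phase-regulated class had a median difference of -0.39 at 5 µM and -0.41 at 10 µM, and the constitutive centromere class had medians of 0.11 and 0.12. The gap between the class medians, phase-regulated minus constitutive, was -0.50 at 5 µM and -0.52 at 10 µM. Between class means the gap was -0.44 and -0.38, the constitutive centromere means being -0.0001 and -0.0067. Over all 11512 genes the medians were 0.02 and 0.05. In bulk RNA, fewer cells in G2 and mitosis and less of these RNAs per cell cannot be told apart.

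Counts by gene gave the same order of the classes. At 5 µM, 32 of 36 phase-regulated genes and 6 of 15 constitutive centromere genes were below vehicle, beside 46.6% of all genes, while 53.2% of all genes were above it. At 10 µM it was 30 of 36 and 7 of 15, beside 43.3% of all genes below vehicle and 56.5% above it. Under 3 other scalings and with length and GC trends removed, the phase-regulated count was 32 to 34 at 5 µM and 29 to 32 at 10 µM, and the constitutive count 6 or 7. The 9 genes of neither class had medians of -0.06 and 0.00. Of the 60 genes, 3 were at least 2-fold lower at 5 µM, against 0.208% of all genes, and 3 at 10 µM, against 0.643%. None of the 60 was at least 2-fold higher at either dose, where 0.539% and 1.31% of all genes were. A 1.5-fold limit was passed downward by 12 of the 60 at 5 µM (1.6% of all genes) and by 11 at 10 µM (3.44% of all genes). All of these were phase-regulated. Upward, none of the 60 passed it at 5 µM, where 3.01% of all genes did, and CENPM alone at 10 µM, where 6.04% did. No difference was as large as 4-fold.

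**Figure D1:**
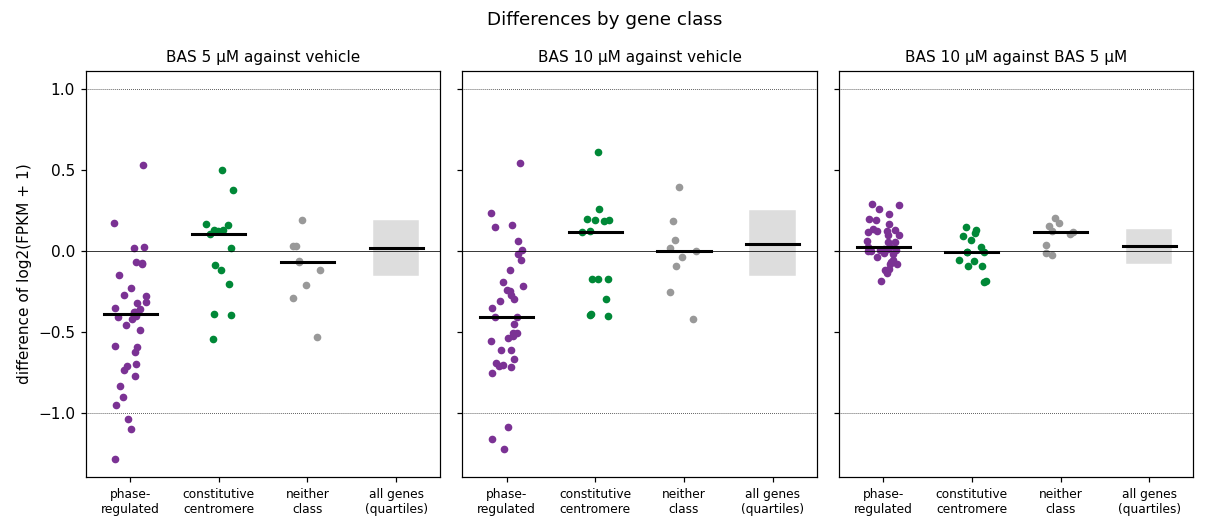
Difference of log2(FPKM + 1) for each of the 60 genes (points) by class, in 3 comparisons with 1 library per group; black bars are medians, and the grey box spans the quartiles of all 11512 genes. The phase-regulated medians lie at -0.39 and -0.41 against vehicle, and the constitutive centromere medians at 0.11 and 0.12; the right panel compares the doses, where all 60 genes lie between -0.19 and 0.29.

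Spindle and spindle pole genes held the largest differences among the 60. HMMR, which encodes a spindle-binding protein that helps to orient the spindle, had 17.1 FPKM in vehicle-treated cells, 7.80 FPKM at 5 µM BAS and 6.76 FPKM at 10 µM BAS. ASPM, which focuses spindle poles and is mutated in microcephaly, was at 12.2, 4.45 and 4.92 FPKM in the same order of dose. PLK1, the kinase that drives mitotic entry, spindle assembly and exit, was at 71.3, 32.7 and 33.0 FPKM. Both treated libraries were below vehicle for each of these genes, and the treated levels were close to each other. Against vehicle the ratios of HMMR were 0.46 at 5 µM and 0.40 at 10 µM, those of ASPM 0.36 and 0.40, and those of PLK1 0.46 and 0.46. At each dose these were the 3 genes past the 2-fold limit. With length and GC trends removed 2 of them passed it, HMMR being at -0.94 at 5 µM and ASPM at -0.99 at 10 µM. CENPF and CENPE at 5 µM fell just short of it, with differences of -0.95 and -0.90, although their plain FPKM ratios were 0.498 and 0.447.

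DLGAP5, which stabilises microtubules near chromosomes, had 30.7 FPKM in vehicle-treated cells, 17.6 FPKM at 5 µM BAS and 18.3 FPKM at 10 µM BAS. AURKA, the spindle pole kinase, was at 43.9, 24.2 and 26.8 FPKM. TPX2, which activates Aurora A on the spindle, was among the 3 most abundant of the 60 genes, at 122, 101 and 98.3 FPKM. AURKA was thus at 0.61 times vehicle at 10 µM and its activator at 0.81 times. CKAP5, a microtubule polymerase, was at 56.6, 46.1 and 47.4 FPKM. NUSAP1, which bundles spindle microtubules, was at 47.2, 44.9 and 52.9 FPKM, but 68.0% of its 50-base sequences are also in an overlapping gene. CKAP2, a stabiliser of spindle poles, was at 28.4, 23.2 and 28.6 FPKM, so that its level at 10 µM was that of vehicle. The centriole genes PLK4 (10.2, 9.76 and 10.7 FPKM) and CENPJ (5.43, 5.15 and 5.05 FPKM) differed from vehicle by at most 0.09 on the log2 scale at either dose.

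**Figure D2:**
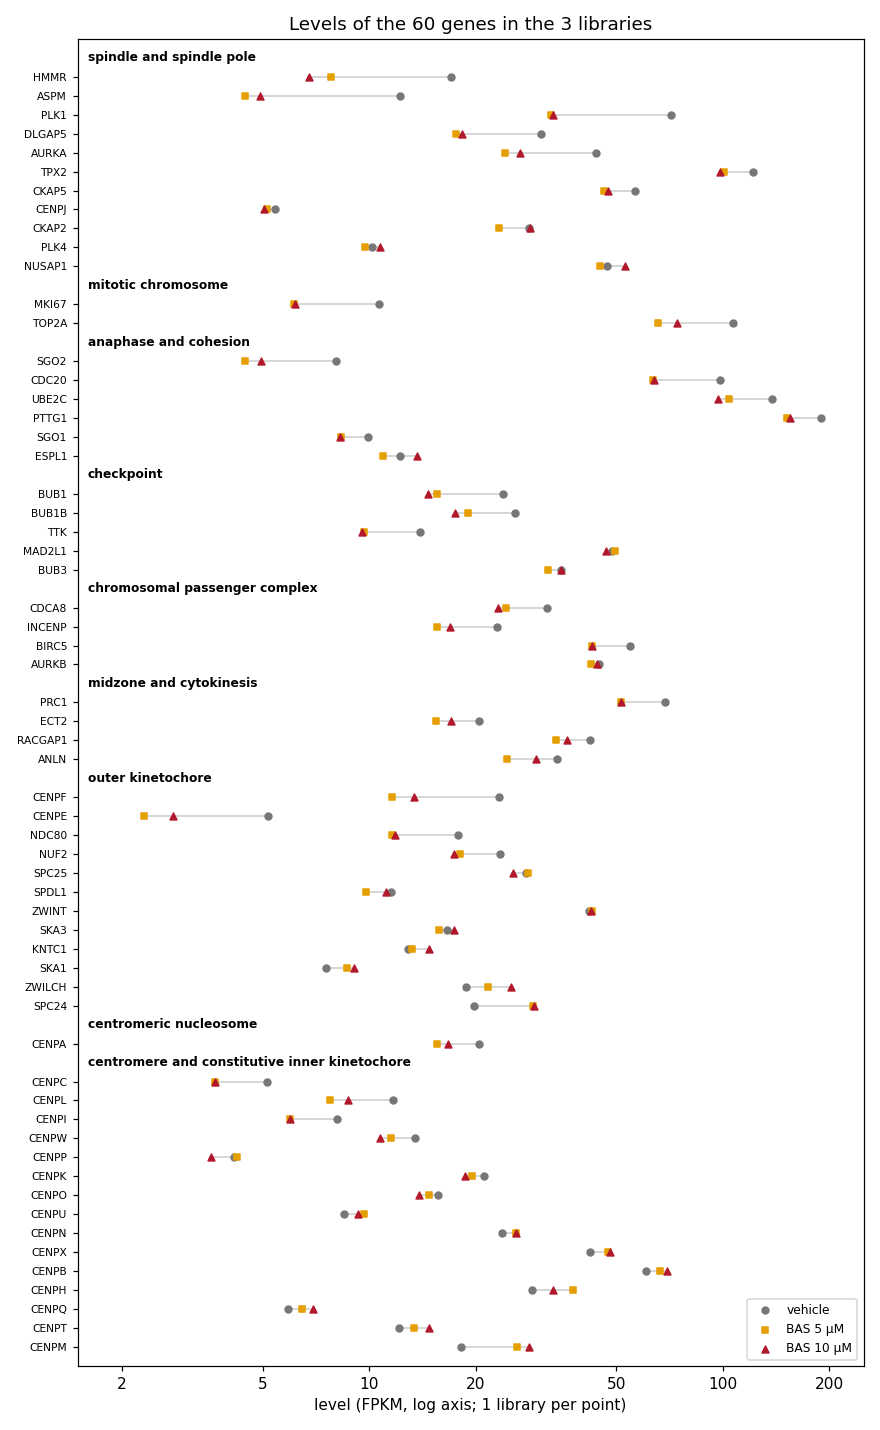
Levels of the 60 genes in FPKM (log axis) with vehicle (grey circles), 5 µM BAS (orange squares) and 10 µM BAS (red triangles), 1 library each, grouped by role and ordered within a role by the difference at 10 µM. In the spindle group HMMR, ASPM and PLK1 have both treated points well to the left of vehicle, and in the lowest group CENPM has them to the right.

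The start regions of HMMR, ASPM and PLK1 are printed because these genes differed most. CENPE is shown as a gene that was also lower, SPC24 as a phase-regulated gene that was higher, and CENPT as a constitutive centromere gene. They span 250 bases before to 50 bases after the annotated start (RefSeq, GRCh38.p14), 5′ to 3′ on the gene's strand. Capitals mark matches on either strand to the CHR (TTTGAA), to the CCAAT box bound by NF-Y (CCAAT), or to one of 4 runs of E2F letters, which were TTCCCGC, the variant TTGGCGC, the variant TTCGCGC and the variant TTGCCGC. An E2F or CHR match can overlap a CCAAT match. The windows are chr5:163460382-163460681 (plus strand) for HMMR, chr1:197146620-197146919 (minus) for ASPM and chr16:23678639-23678938 (plus) for PLK1. Those of CENPE, SPC24 and CENPT are chr4:103198294-103198593, chr19:11155733-11156032 and chr16:67847644-67847943, all on the minus strand.
HMMR: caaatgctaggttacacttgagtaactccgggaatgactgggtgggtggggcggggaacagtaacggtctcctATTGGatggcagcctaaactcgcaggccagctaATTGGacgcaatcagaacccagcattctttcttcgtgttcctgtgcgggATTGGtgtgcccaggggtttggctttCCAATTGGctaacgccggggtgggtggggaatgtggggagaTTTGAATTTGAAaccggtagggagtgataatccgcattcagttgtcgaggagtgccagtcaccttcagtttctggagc
ASPM: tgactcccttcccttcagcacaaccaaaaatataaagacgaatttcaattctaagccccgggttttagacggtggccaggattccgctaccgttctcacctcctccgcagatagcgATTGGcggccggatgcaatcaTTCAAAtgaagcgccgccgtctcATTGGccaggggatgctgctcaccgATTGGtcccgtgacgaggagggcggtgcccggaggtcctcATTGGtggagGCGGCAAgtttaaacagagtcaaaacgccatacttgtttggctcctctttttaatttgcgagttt
PLK1: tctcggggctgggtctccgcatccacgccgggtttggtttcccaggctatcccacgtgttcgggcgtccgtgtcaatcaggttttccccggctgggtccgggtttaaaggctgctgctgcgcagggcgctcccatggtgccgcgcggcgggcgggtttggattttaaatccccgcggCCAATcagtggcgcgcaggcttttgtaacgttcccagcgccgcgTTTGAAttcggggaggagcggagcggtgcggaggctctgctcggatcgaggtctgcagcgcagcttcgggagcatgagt
CENPE: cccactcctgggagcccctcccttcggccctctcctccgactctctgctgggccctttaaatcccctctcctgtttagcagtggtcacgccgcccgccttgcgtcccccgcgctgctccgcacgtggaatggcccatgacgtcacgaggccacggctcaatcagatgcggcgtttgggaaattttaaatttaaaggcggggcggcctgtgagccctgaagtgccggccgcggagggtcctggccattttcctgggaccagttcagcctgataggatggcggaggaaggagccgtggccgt
SPC24: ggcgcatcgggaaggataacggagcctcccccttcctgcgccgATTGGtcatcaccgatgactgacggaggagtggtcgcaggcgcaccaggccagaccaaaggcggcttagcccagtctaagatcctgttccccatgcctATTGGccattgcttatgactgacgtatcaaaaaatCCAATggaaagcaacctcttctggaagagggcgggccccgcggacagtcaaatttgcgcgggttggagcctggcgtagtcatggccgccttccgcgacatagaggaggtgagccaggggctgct
CENPT: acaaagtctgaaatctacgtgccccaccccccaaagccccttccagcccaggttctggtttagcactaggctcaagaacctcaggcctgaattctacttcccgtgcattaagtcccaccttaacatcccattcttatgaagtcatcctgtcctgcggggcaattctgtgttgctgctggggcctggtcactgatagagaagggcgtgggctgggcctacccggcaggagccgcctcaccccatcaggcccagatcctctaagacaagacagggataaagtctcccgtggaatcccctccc
HMMR has a pair of adjoining CHR matches that begin 28 and 22 bases before the start, with CCAAT matches upstream of them. PLK1 has a CHR 29 bases before the start and a CCAAT box that begins 73 bases before it. ASPM has 4 CCAAT matches, and its CHR match lies farther upstream, at position -113 from the start. SPC24 has 3 CCAAT matches and no CHR match. The windows of CENPE and CENPT hold none of the letters searched. CENPT does not stand for its class in this, since 7 of 12 constitutive centromere windows have a CCAAT match.

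Promoter windows were matched by symbol for 48 of the 60 genes. A CHR match was in 22 of 30 phase-regulated windows (73.3%) and in 3 of 12 constitutive centromere windows (25%). Among the 9180 windows of all genes compared it was in 9.27%. Within 50 bases of the start, where 2.71% of all compared genes had one, it was in 19 of the 30 (63.3%) and in 2 of the 12 (16.7%). A CCAAT box was in 73.3% of the phase-regulated windows, 58.3% of the constitutive ones and 36.9% of all. CHR and CCAAT matches were together in 53.3%, 16.7% and 4.01%. E2F letters were in 30% of phase-regulated windows, 33.3% of constitutive ones and 21.6% of all. Of the 6 windows of genes in neither class, 5 had a CHR match. Within the phase-regulated class, the 22 genes with a CHR match had a median difference at 10 µM of -0.43, and the 8 without one of -0.27. Both groups overlapped widely, from -1.22 to 0.24 and from -0.71 to 0.54. The 9 genes with E2F letters had a median of -0.25, and the 21 without them of -0.53, with ranges from -1.16 to 0.24 and from -1.22 to 0.54. With a CCAAT box the median was -0.43 over 22 genes, and without one -0.30 over 8. For the CHR only TTTGAA was searched and no variant of it, so a window without a match may hold a variant. A match is a run of letters and does not show that a factor is bound there.

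**Figure D3:**
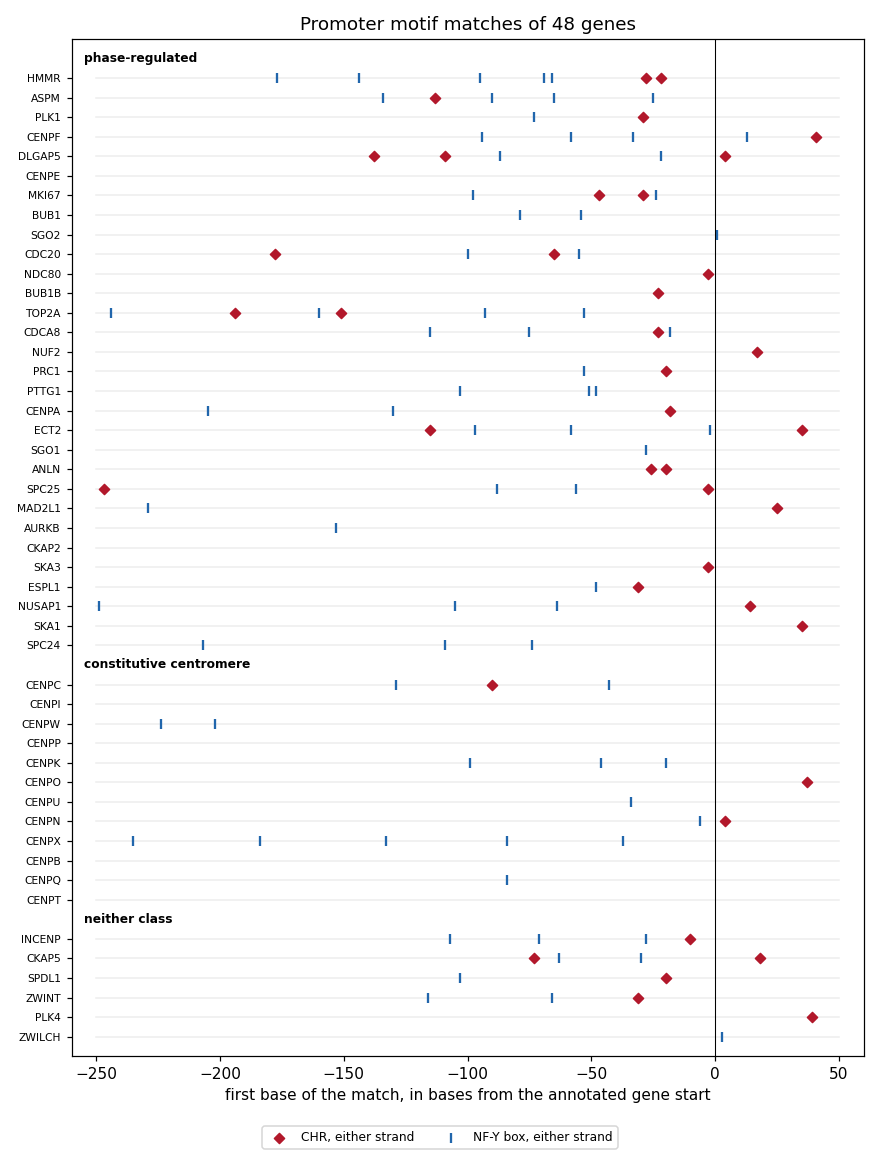
First base of each CHR match (red diamonds) and NF-Y (CCAAT) box match (blue bars) in the promoter windows of 48 genes, in bases from the annotated start, ordered within each class from the lowest to the highest difference at 10 µM. Most CHR matches of phase-regulated genes gather near the start, and 9 of the 12 constitutive centromere windows have none.

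Markers of mitotic chromosomes were lower as well. TOP2A, the topoisomerase that untangles sister DNA, had 107 FPKM in vehicle-treated cells, 65.8 FPKM at 5 µM BAS and 74.1 FPKM at 10 µM BAS. MKI67, the proliferation marker Ki-67 that coats mitotic chromosomes, was at 10.7, 6.15 and 6.19 FPKM. Its ratio to vehicle was 0.58 at each dose.

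Genes of anaphase onset, which release sister chromatids through the anaphase-promoting complex, were below vehicle except for separase at 10 µM. CDC20, the activator of this ubiquitin ligase and the target of the checkpoint, had 98.0 FPKM in vehicle-treated cells, 63.4 FPKM at 5 µM BAS and 63.9 FPKM at 10 µM BAS. UBE2C, its ubiquitin-conjugating enzyme, was at 138, 104 and 96.7 FPKM. PTTG1 (securin), the inhibitor of separase, was the most abundant of the 60 genes and was at 190.1, 152 and 155 FPKM. Its 10 µM ratio of 0.81 was nearer to vehicle than those of CDC20 (0.65) and UBE2C (0.70). ESPL1, separase itself, was at 12.2, 10.96 and 13.7 FPKM. The shugoshins protect centromeric cohesion, and they differed in size. SGO2 was at 8.07, 4.46 and 4.95 FPKM, and SGO1 at 9.93, 8.33 and 8.26 FPKM. Of the 50-base sequences of SGO1, 21.6% are also in other genes, mostly its antisense gene.

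Checkpoint genes did not move together, BUB1, BUB1B and TTK being lower relative to vehicle than MAD2L1 and BUB3. BUB1, a kinase that marks centromeric chromatin and recruits other checkpoint proteins, had 23.9 FPKM in vehicle-treated cells, 15.5 FPKM at 5 µM BAS and 14.7 FPKM at 10 µM BAS. BUB1B (BUBR1), part of the complex that inhibits CDC20, was at 25.8, 19.0 and 17.5 FPKM. TTK (MPS1), the kinase that starts the checkpoint, was at 13.95, 9.69 and 9.56 FPKM. Their ratios to vehicle at 10 µM were between 0.61 and 0.69. The other two components stayed near vehicle. MAD2L1 (MAD2), which binds CDC20 directly, was at 48.6, 49.5 and 46.7 FPKM. BUB3, the carrier of BUB1 and BUBR1, was at 34.8, 32.1 and 34.9 FPKM. The level of BUB1 over that of BUB3 was therefore 0.69 in vehicle-treated cells, 0.48 at 5 µM BAS and 0.42 at 10 µM BAS.

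The chromosomal passenger complex, which corrects wrong attachments, consists of AURKB, INCENP, BIRC5 and CDCA8. Its kinase AURKB had 44.8 FPKM in vehicle-treated cells, 42.4 FPKM at 5 µM BAS and 44.2 FPKM at 10 µM BAS. The scaffold INCENP was at 22.9, 15.6 and 16.9 FPKM, and the targeting subunits were lower too. BIRC5 (survivin) was at 54.6, 42.6 and 42.6 FPKM, and CDCA8 (borealin) at 31.9, 24.3 and 23.2 FPKM. AURKB thus lay within 0.08 of vehicle on the log2 scale, while its 3 partners were at 0.725 to 0.780 times vehicle at 10 µM. With length and GC trends removed, AURKB was at -0.21 at 5 µM and -0.11 at 10 µM. Its partners were then between -0.50 and -0.40 at 10 µM. The level of AURKA over that of AURKB was 0.98 in vehicle-treated cells, 0.57 at 5 µM BAS and 0.61 at 10 µM BAS.

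Midzone and cytokinesis genes were below vehicle, all 4 of them, beside 46.6% of all genes at 5 µM and 43.3% at 10 µM. The difference was smaller at 10 µM in 3 of the 4. Of all genes, 58.6% were higher at 10 µM than at 5 µM. PRC1, which bundles midzone microtubules, was at 68.5, 51.4 and 51.4 FPKM in order of dose, but 63.9% of its 50-base sequences are also in an overlapping gene. ECT2, the exchange factor that activates RhoA for the contractile ring, was at 20.4, 15.5 and 17.0 FPKM. RACGAP1, a centralspindlin subunit that recruits ECT2, was at 42.2, 33.8 and 36.3 FPKM. ANLN (anillin), a scaffold of the contractile ring, was at 34.1, 24.6 and 29.7 FPKM. ANLN was 0.72 times vehicle at 5 µM and 0.87 times at 10 µM.

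Outer kinetochore genes lay on both sides of vehicle, with 6 of 12 below it at each dose, near the 46.6% and 43.3% of all genes. Their medians were -0.03 and -0.01, beside 0.02 and 0.05 for all genes. Of these 12 genes, SPC25, ZWINT and KNTC1 at 5 µM and ZWINT and SKA3 at 10 µM changed side under at least 1 other scaling. The large coiled-coil proteins that join the outer kinetochore late were lowest. CENPF, which binds microtubules and dynein regulators, had 23.3 FPKM in vehicle-treated cells, 11.6 FPKM at 5 µM BAS and 13.4 FPKM at 10 µM BAS. CENPE, the kinesin that moves chromosomes to the metaphase plate, was at 5.17, 2.31 and 2.78 FPKM. Within the NDC80 complex, a tetramer with 1 copy of each subunit, the microtubule-binding subunits NDC80 and NUF2 were lower than the centromere-facing subunits SPC24 and SPC25 relative to vehicle. NDC80 was at 17.8, 11.6 and 11.8 FPKM, and its partner NUF2 at 23.4, 18.1 and 17.4 FPKM. SPC25 was near vehicle, at 27.7, 28.1 and 25.6 FPKM. SPC24 was at 19.8, 29.1 and 29.3 FPKM, so that it was 1.48 times vehicle at 10 µM. The level of SPC24 over that of NDC80 was 1.11 in vehicle-treated cells, 2.51 at 5 µM BAS and 2.48 at 10 µM BAS.

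SKA1 and SKA3, subunits of a complex that helps NDC80 to follow shrinking microtubules, stayed within 0.24 of vehicle on the log2 scale. SKA1 had 7.56 FPKM in vehicle-treated cells, 8.66 FPKM at 5 µM BAS and 9.09 FPKM at 10 µM BAS, and SKA3 was at 16.6, 15.8 and 17.4 FPKM. Of the complex that brings dynein and the MAD proteins to kinetochores, ZWILCH was at 18.8, 21.7 and 25.1 FPKM and KNTC1 (ROD) at 12.9, 13.2 and 14.8 FPKM. ZWILCH was the highest of the outer kinetochore genes after SPC24, at 1.33 times vehicle at 10 µM. ZWINT, which links this complex to the kinetochore, was at 41.8, 42.8 and 42.5 FPKM. SPDL1 (Spindly), the dynein adaptor, was at 11.5, 9.80 and 11.2 FPKM.

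At the centromere itself, CENPA had 20.4 FPKM in vehicle-treated cells, 15.6 FPKM at 5 µM BAS and 16.8 FPKM at 10 µM BAS. CENPB, which binds a motif of alpha satellite DNA, was the most abundant of the 15 constitutive centromere genes, at 60.8, 66.3 and 69.5 FPKM. CENPC, which ties the CENP-A nucleosome to the outer kinetochore, was at 5.14, 3.67 and 3.66 FPKM. These subunits of 1 structure lay on different sides of vehicle, and CENPC at 0.71 times vehicle was the lowest of the class at 10 µM.

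Among the other subunits, those of 1 subcomplex did not always stand together. In the group of CENPH, CENPI, CENPK and CENPM, CENPM had 18.2 FPKM in vehicle-treated cells, 26.2 FPKM at 5 µM BAS and 28.4 FPKM at 10 µM BAS, the highest ratio of all 60 genes at 10 µM (1.56). CENPH was at 28.8, 37.8 and 33.2 FPKM. CENPI, by contrast, was at 8.11, 5.98 and 5.96 FPKM, and CENPK at 21.2, 19.5 and 18.7 FPKM. CENPL was at 11.7, 7.73 and 8.69 FPKM while its direct partner CENPN was at 23.7, 26.1 and 26.0 FPKM. In the group of histone-fold proteins, CENPT was at 12.1, 13.4 and 14.7 FPKM and its partner CENPW at 13.4, 11.5 and 10.8 FPKM. CENPX, which also acts in DNA repair, was at 42.2, 47.3 and 48.1 FPKM. The remaining subunits CENPO, CENPP, CENPQ and CENPU were between 0.86 and 1.17 times vehicle at 10 µM. CENPO, CENPP and CENPN share 35.6%, 42.6% and 21.012% of their 50-base sequences with other genes, so their levels are less certain.

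Between the doses the 60 genes moved little. At 10 µM against 5 µM, 36 of the 60 were higher and 24 lower, beside 58.6% and 41% of all genes. This split depended on the scaling, with 31 of the 60 lower under median-ratio scaling, 28 under quantile normalization, 14 with a common total and 19 with length and GC trends removed. None of the 60 differed 2-fold, as 0.0434% of all genes did in each direction, or 1.5-fold, as 0.434% did upward and 0.408% downward. The median difference was 0.03 for the phase-regulated class, 0.00 for the constitutive centromere class and 0.04 for all genes. The lowest was -0.19 for CENPP, and HMMR was at -0.18. The highest were ESPL1 (0.29), CKAP2 (0.29), ANLN (0.26) and NUSAP1 (0.23).

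Transcript length and GC content moved with the differences. Over the 60 genes, Spearman's rho between the difference at 10 µM and the length of the longest coding transcript was -0.24, and with its GC content 0.17. Over 11363 genes with a matched transcript the values were -0.19 and 0.22. At 5 µM they were -0.31 and 0.19 over the 60 genes, and -0.33 and 0.31 over the 11363. The genes of a set share their libraries, so these are descriptions. At 10 µM the long transcripts of CENPE, CENPF, ASPM and MKI67 were lower, and that of KNTC1 was higher. Of short ones, UBE2C and CDC20 were lower, AURKB was near vehicle and CENPM was higher. Length as a cause was not tested. With length and GC trends of all genes removed, the class medians at 10 µM were -0.41 for the phase-regulated class and 0.05 for the constitutive centromere class, and the gap was -0.46. At 5 µM the medians were then -0.41 and 0.02, and the gap was -0.42.

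**Figure D4:**
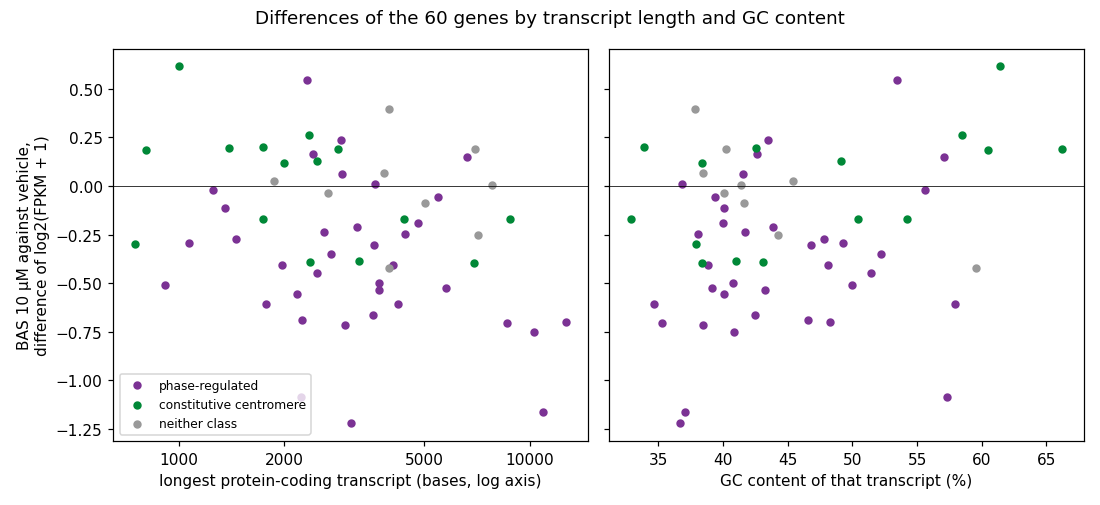
Difference of log2(FPKM + 1) at 10 µM BAS against vehicle for the 60 genes, against transcript length (left, log axis) and GC content (right), coloured by class. Of 36 phase-regulated genes, 30 lie below 0, at short and long lengths and at low and high GC content, and 6 above it. The constitutive centromere genes lie on both sides of 0.

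Other genes of division were read in lists that share no member with the 60. The G2/M list and the list of other kinetochore and centromere genes have some genes in common. Of 40 G2/M regulators and mitotic genes, 35 at the lower and 32 at the higher dose were below vehicle, beside 46.6% and 43.3% of all genes. Their medians were -0.33 and -0.38. CCNB1 (cyclin B1) had 94.3 FPKM in vehicle-treated cells, 59.98 FPKM at 5 µM BAS and 62.9 FPKM at 10 µM BAS, but its kinase CDK1 was at 58.4, 58.5 and 63.5 FPKM. The furthest from vehicle at 10 µM were the helicase gene PIF1, the kinesin genes KIF20A and KIF14, and CDCA2, at 0.32, 0.50, 0.57 and 0.59 times vehicle. The ratio of PIF1 rests on low levels, which were 2.63, 0.81 and 0.84 FPKM from vehicle to the higher dose. On the log2(FPKM + 1) scale, 2 genes of this list at 5 µM and 0 at 10 µM were at least 2-fold lower, beside 0.208% and 0.643% of all genes. PIF1 and KIF20A at 10 µM, with differences of -0.98 and -0.96, fell short only on that scale. Condensin and cohesin genes, which shape and hold chromatids, had medians of -0.31 and -0.26, with 15 of 19 below vehicle at each dose, beside the same 46.6% and 43.3% of all genes. The condensin genes SMC4 and NCAPD2 were at 0.53 and 0.57 times vehicle at 10 µM, the cohesin loader NIPBL at 0.57 and the cohesin regulator PDS5B at 0.68.

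The 22 kinetochore and centromere genes outside the 60 had medians of -0.06 and 0.02. SKA2, the third SKA subunit, was lower, at 27.2, 17.2 and 13.7 FPKM, while PMF1 and DSN1 of the MIS12 complex were 1.45 and 1.37 times vehicle at 10 µM, and NDE1 0.74 times. Anaphase-promoting complex genes had medians of -0.03 and -0.07. ANAPC16 and ANAPC7 were at 1.49 and 1.37 times vehicle at 10 µM, and CDC27 and ANAPC2 at 0.74 and 0.75 times. Centriole and centrosome genes had medians of -0.07 and -0.10. TUBG1 (gamma-tubulin) and CEP120 were at 1.32 and 1.31 times vehicle at 10 µM, and CEP63 and PCNT at 0.64 and 0.74 times.

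The regulators of the phase-regulated genes showed no common shift. The list of 17 DREAM, B-MYB and FOXM1 regulators had medians of 0.02 and 0.00. MYBL2 (B-MYB) had 70.7 FPKM in vehicle-treated cells, 99.1 FPKM at 5 µM BAS and 110.3 FPKM at 10 µM BAS. FOXM1 was at 76.5, 78.1 and 92.1 FPKM. Of the MuvB core that binds the CHR, LIN9 and LIN37 were at 1.26 and 1.44 times vehicle at 10 µM, and LIN52, LIN54 and RBBP4 at 0.97, 1.11 and 0.985 times. NFYC, a subunit of NF-Y, was at 0.81 times. The 32 G1/S and DNA synthesis genes had medians of 0.14 and 0.19, with TK1, E2F1 and RRM2 at 1.58, 1.47 and 1.39 times vehicle at 10 µM. Below vehicle were 7 of the 32 at 5 µM and 8 at 10 µM, beside 46.6% and 43.3% of all genes. The lowest difference of the list at 10 µM was -0.34. RNA levels do not give the amount or activity of these proteins.

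**Figure D5:**
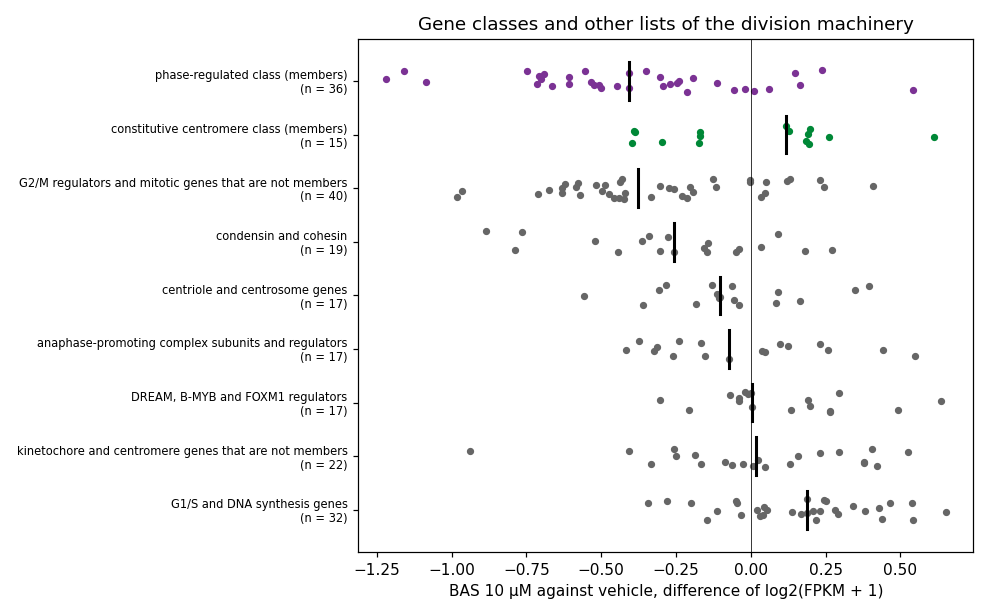
Difference of log2(FPKM + 1) at 10 µM BAS against vehicle for the genes of 2 classes of the 60 (coloured) and of 7 other lists (grey), 1 point per gene in each list, with medians as black bars. The phase-regulated class (-0.41) and the list of other G2/M genes (-0.38) have the lowest medians, and the G1/S list (0.19) the highest.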

How the data were processed

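The values are FPKM per gene symbol, as deposited by the authors and per the file headers, although the tables are titled RPKM. Per the submitters' processing notes, Trim Galore, BWA, Bowtie2, Cufflinks, Cuffdiff and build hg19 were used; the sources used here state no roles, versions, annotation or strand handling. Reads were single-end, of 50 bases, per the labels' protocols. The values have no counts and their low values gave no steps of whole reads, so depth and counting error are unknown.

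Groups came from the treatment labels. The 2 symbols in more than 1 row, neither a member, were summed. Genes averaging 1 FPKM or more were compared as log2(FPKM + 1), and 2-fold means a difference of at least 1 on that scale. With 1 library per group no test was made. The members, classes and lists were chosen with earlier results of these data known. All members are named; of each other list, the up to 4 genes furthest from vehicle at 10 µM, with MYBL2, FOXM1, CCNB1 and CDK1. LIN52, LIN54 and RBBP4 were added after their values were seen. One gene that this rule names is not reported here. The calculation was tested on simulated data.

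Transcript length, GC content and 50-base sequences shared with another gene, on either strand, came from GENCODE 29 transcripts (GRCh38), matched by symbol for 98.7% of the genes compared. Promoter windows came from RefSeq (GRCh38.p14). Alternatives were pseudocounts, filters, fold limits, scalings, means and removal of GC and length trends by a quadratic fit. Calculations used pandas 2.3.3 and numpy 2.4.6 in Python 3.11.15, with scipy 1.17.1 for ranks; plots used matplotlib 3.10.9.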

Additional observations from a re-analysis of the deposited data

How the results depend on the processing

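The phase-regulated median against vehicle stayed between -0.44 and -0.38 at 5 µM and between -0.48 and -0.39 at 10 µM under the 10 alternatives that bear on it. The constitutive centromere median ranged from 0.00 to 0.12 at 5 µM and from -0.03 to 0.15 at 10 µM, its lowest value at 10 µM being that with CENPA counted in the class. The lowest value at 5 µM was the mean taken in place of the median. With a 1.5-fold limit, 12 members were lower at 5 µM, and 11 were lower and 1 higher at 10 µM; with a 4-fold limit it was 0 lower at each dose. Between doses, median-ratio scaling gave -0.01 for the 60 genes and -0.01 for the phase-regulated class, where 0.03 was found. With length and GC trends removed, 2 members in place of 3 were at least 2-fold lower at each dose. With a pseudocount of 0.1 or 0.5 it was 4 at 5 µM and 3 at 10 µM. The other 152 values, both these sets of counts among them, stayed within the 95% order-statistic interval of the median over members or within 1.5 times the count; members share libraries, so this interval is only a yardstick. Scalings moved the median of all genes by -0.05 at most, at 10 µM under quantile normalization. Under at least 1 of 3 scalings, the direction turned at 10 µM for BUB3, ZWINT, CKAP2 and SKA3, and at 5 µM for CENPP, SPC25, MAD2L1, ZWINT and KNTC1. With GC and length trends removed it turned at 5 µM for CENPJ, CENPX, BUB3 and PLK4 and at 10 µM for MAD2L1. Leaving out members with at least 20% shared 50-base sequences was chosen after seeing the data. No paired analysis was possible because each group has 1 library, and for the same reason no library could be left out.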

Other observations

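Ranked by the difference from vehicle, 10 of the 100 lowest of all 11512 genes at 5 µM were among the 60, which make up 0.521% of the genes compared. They were ASPM, PLK1, HMMR, CENPF, CENPE, AURKA, DLGAP5, SGO2, MKI67 and TOP2A. At 10 µM 3 of the 100 lowest were, HMMR, ASPM and PLK1. ASPM was 8th from the lowest at 5 µM and 39th at 10 µM, while its level was 4.45 and 4.92 FPKM, and the number of all genes at least 2-fold lower was 24 at 5 µM and 74 at 10 µM. None of the 60 was among the 100 highest at either dose. This ranking was chosen after the values were seen.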
